A study of Mus musculus with 4 samples.

Results

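The genes described here make, destroy and sense prostaglandins and thromboxane, lipid signals that macrophages form from arachidonic acid. The 10 members were listed by name, and every one was found on the arrays through the RefSeq accession of its probes: the cyclooxygenase genes Ptgs1 and Ptgs2, the terminal synthase genes Ptges, Ptges2, Ptges3, Hpgds and Tbxas1, the degrading enzyme gene Hpgd, and the receptor genes Ptger2 and Ptger4. They are 10 of 24067 features tested, of which 14496 carry a RefSeq gene symbol and the others only an accession or a probe name. RNA came from primary Kupffer cells (macrophages that reside in the liver) of male C57BL/6 mice aged 8 weeks, and was hybridised to 4 one-colour Agilent arrays. The cells had been plated in medium with 10% serum and then kept for 24 h in medium with 0.1% serum that held either maresin 1 at 200 nM (MaR1, 2 arrays) or its ethanol vehicle (Veh, 2 arrays). It is not stated that same-group arrays were hybridised with RNA of different cultures or animals. The p-values then reflect no more than array-to-array spread, which may be technical.

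Cyclooxygenases turn arachidonic acid into the unstable intermediate prostaglandin H2, and terminal synthases turn that intermediate into prostaglandin E2, prostaglandin D2, thromboxane or other prostanoids. Prostaglandin E2 acts through 4 receptor types, of which EP2 and EP4 raise cyclic AMP, and 15-hydroxyprostaglandin dehydrogenase, the product of Hpgd, inactivates it. Kupffer cells are a known source of prostaglandins in the liver. Maresin 1 is a macrophage product of docosahexaenoic acid known for promoting the resolution of inflammation.

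Both cyclooxygenase genes rose with maresin 1, Ptgs2 by 2.43-fold and Ptgs1 by 1.90-fold, and the thromboxane synthase gene Tbxas1 rose 1.41-fold. The prostaglandin D2 synthase gene Hpgds (2.27-fold), the degrading enzyme gene Hpgd (2.10-fold) and the receptor genes Ptger4 (1.92-fold) and Ptger2 (1.65-fold) fell. The 3 prostaglandin E2 synthase genes, Ptges, Ptges2 and Ptges3, did not pass the test, with fold differences between 1.00 and 1.09. So 7 of the 10 members were called (3 higher, 4 lower), against 24.0% of all features tested (11.2% higher and 12.7% lower) and 24.8% of those with a RefSeq symbol (12.9% higher and 11.9% lower), by limma's moderated test with an adjusted p under 0.05 after Benjamini-Hochberg adjustment over all genes. The median absolute log2 difference was 0.82 over the members and 0.18 over all genes, and the median signed difference was 0.02 and -0.02. The members were chosen with earlier results of these data known, so these shares and medians describe the list and do not test it. Levels are on a log2 scale, relative to the 75th percentile of the array, and in bulk RNA fewer cells of a type and less RNA per cell cannot be told apart.

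**Figure D1:**
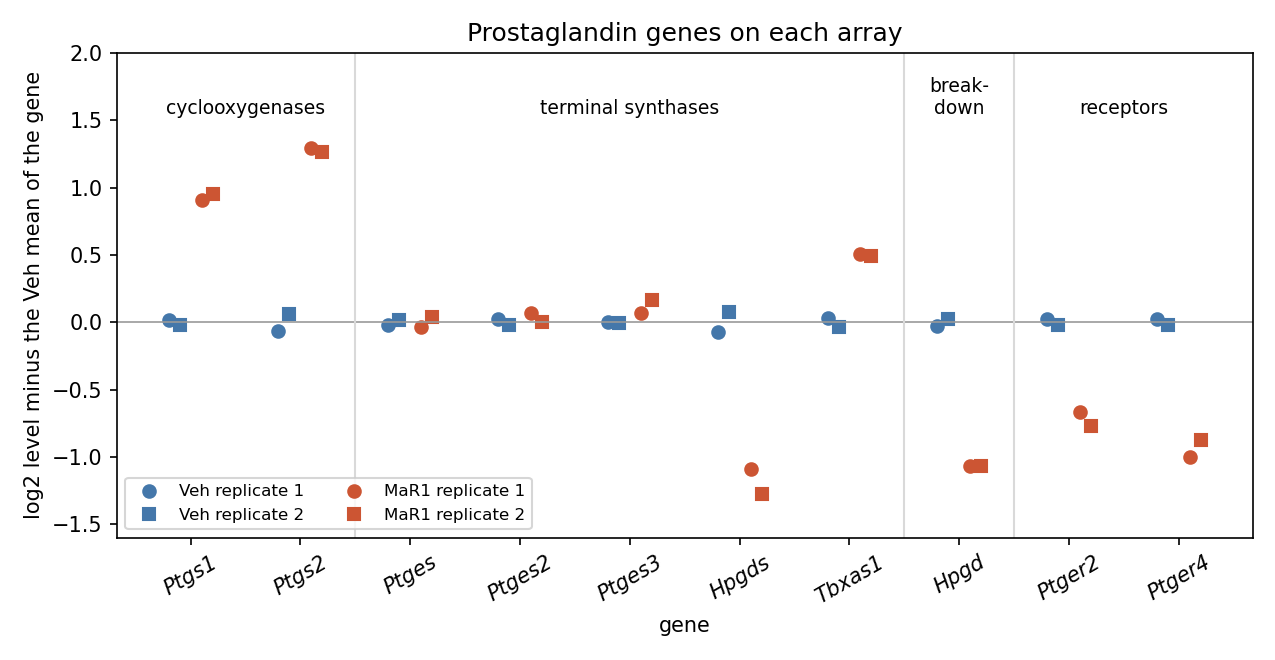
Level of each of the 10 genes on each of the 4 arrays, as the log2 level minus the gene's mean on the Veh arrays (vertical axis), with genes grouped by role (horizontal axis); blue points are Veh, orange points MaR1, circles replicate 1 and squares replicate 2. Both MaR1 points lie above the Veh points for Ptgs1, Ptgs2 and Tbxas1, and below them for Hpgds, Hpgd, Ptger2 and Ptger4.

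The start regions of members that moved are shown because the receptor pair fell together, while Ptgs2 and Hpgd moved in opposite directions. RefSeq start windows (build GRCm38.p6) were matched for 10 of 10 members. For 4 of them (Ptgs1, Ptges, Tbxas1 and Hpgds) the window overlaps the annotated span of the gene, and these are not printed. The 250 bases before the start of Ptgs2, which rose, are at chr1:150099781-150100030 on the plus strand. Those of Hpgd, which fell, are at chr8:56294302-56294551 on the plus strand. Those of the receptor genes are at chr14:44987861-44988110 on the plus strand (Ptger2) and chr15:5244188-5244437 on the minus strand (Ptger4). Capitals mark 3 motifs searched on both strands, chosen with these sequences in view: the GC box GGGCGG, the PU box GAGGAA and the C/EBP site TTGCNNAA.
Ptgs2: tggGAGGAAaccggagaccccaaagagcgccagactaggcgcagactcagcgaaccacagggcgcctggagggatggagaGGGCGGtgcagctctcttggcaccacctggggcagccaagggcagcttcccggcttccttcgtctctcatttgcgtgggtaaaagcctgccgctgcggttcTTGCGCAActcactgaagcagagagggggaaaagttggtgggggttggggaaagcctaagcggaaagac
Hpgd: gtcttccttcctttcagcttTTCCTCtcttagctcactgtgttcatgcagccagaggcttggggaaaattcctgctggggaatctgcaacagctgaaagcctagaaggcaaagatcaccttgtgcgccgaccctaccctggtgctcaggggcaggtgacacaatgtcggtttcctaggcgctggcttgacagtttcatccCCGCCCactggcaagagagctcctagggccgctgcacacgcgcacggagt
Ptger2: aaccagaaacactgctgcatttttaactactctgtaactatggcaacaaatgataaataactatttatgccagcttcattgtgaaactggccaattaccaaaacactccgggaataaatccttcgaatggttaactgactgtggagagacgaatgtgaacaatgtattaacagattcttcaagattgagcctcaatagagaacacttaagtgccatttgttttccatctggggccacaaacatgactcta
Ptger4: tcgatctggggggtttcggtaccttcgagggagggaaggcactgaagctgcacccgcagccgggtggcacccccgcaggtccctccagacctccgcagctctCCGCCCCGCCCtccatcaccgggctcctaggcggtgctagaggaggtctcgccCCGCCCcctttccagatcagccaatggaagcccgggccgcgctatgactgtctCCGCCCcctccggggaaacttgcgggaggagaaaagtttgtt

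The GC box was in the windows of 5 of the 10 members (Ptgs2, Ptges, Ptges3, Hpgd and Ptger4) and in 32.7% of all 32851 windows of that length. Ptger4 held it 4 times, of which the copies starting 148 and 143 bases before the start share 1 base, while Ptger2 held none of the 3 motifs. The receptor windows also differed in base composition, with 66.8% G and C for Ptger4 and 38.0% for Ptger2, against a median of 52.4% over all windows. The PU box was found for 6 members (Ptgs1, Ptgs2, Ptges, Tbxas1, Hpgd and Hpgds; 23.3% of all windows), and the C/EBP site for Ptgs2 and Hpgds (9.56% of all windows). Each of these motifs was in the window of a gene that rose and of another that fell. For the C/EBP site the gene that fell is Hpgds, whose window overlaps the annotated span of the gene. A link between motif and direction was not tested. The nuclear receptor half-site AGGTCA (14.0% of all windows) and the cyclic AMP response element TGACGTCA (1.55%) were not in these letters in any of the 10 windows. These matches describe sequence, not binding.

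Ptgs2 encodes the inducible cyclooxygenase. Its probe read a processed signal, which is a linear brightness, of 443 and 497 on the Veh arrays and 1116 and 980 on the MaR1 arrays. Both MaR1 values lie above both Veh values. After scaling, its level was -1.05 ± 0.09 with Veh and 0.22 ± 0.02 with MaR1 (SD, n = 2), so the log2 level rose by 1.28 ± 0.07 (adjusted p = 0.00298); the error of each difference is the SE from limma. Among all genes tested, 1.99% had a larger absolute difference.

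Ptgs1 encodes the cyclooxygenase that most cells make constantly. Its signal was 6166 and 6164 with Veh and 11209 and 10373 with MaR1, with no overlap. The scaled level went from 2.66 ± 0.03 to 3.59 ± 0.03 (SD, n = 2), a difference of 0.93 ± 0.06 (adjusted p = 0.00349), and 4.26% of genes had a larger one. The genes of both isoforms therefore rose. Their ratio within an array, in which array scaling cancels, shifted by 0.35 on the log2 scale toward Ptgs2, with an SD of 0.12 between the Veh arrays and of 0.05 between the MaR1 arrays, and this shift had no test.

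The 3 genes of prostaglandin E2 synthesis after the cyclooxygenase step did not pass. Ptges encodes the inducible, membrane-bound synthase that is usually coupled to Ptgs2. Its brightest probe read 31517 and 33179 with Veh and 30714 and 28891 with MaR1, and the scaled groups overlapped. The difference was 0.00 ± 0.06 (95% interval -0.16 to 0.17, adjusted p = 0.963). Its other 2 probes were far dimmer, so the probes differ on the level of Ptges. The first of them read 408 and 420 with Veh and 371 and 327 with MaR1. The second read 225 and 235 with Veh and 239 and 195 with MaR1. Each tested as a probe of its own, these 2 gave -0.13 ± 0.05 (adjusted p = 0.161) and 0.03 ± 0.07 (adjusted p = 0.790).

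Ptges2, which encodes a membrane-associated prostaglandin E2 synthase, had signals of 2423 and 2411 with Veh and 2465 and 2105 with MaR1. The scaled groups overlapped, and the difference was 0.04 ± 0.06 (95% interval -0.13 to 0.20, adjusted p = 0.677). Ptges3 encodes the cytosolic synthase, also known as the HSP90 co-chaperone p23. Its signals were 31756 and 32385 with Veh and 32656 and 31315 with MaR1, a scaled difference of 0.12 ± 0.06 (95% interval -0.05 to 0.29, adjusted p = 0.238). The scaled Ptges3 groups did not overlap, as was so for 8 of the 10 members and for 69.5% of all genes. In this scaling the intervals of the 3 genes reach up to 0.29 on the log2 scale. They rest on array-to-array spread alone and so do not cap the change with treatment. With no scaling between arrays the SEs were larger (0.12 for Ptges, 0.13 for Ptges2 and 0.11 for Ptges3). The sign of each difference turned under at least 1 other scaling.

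**Figure D2:**
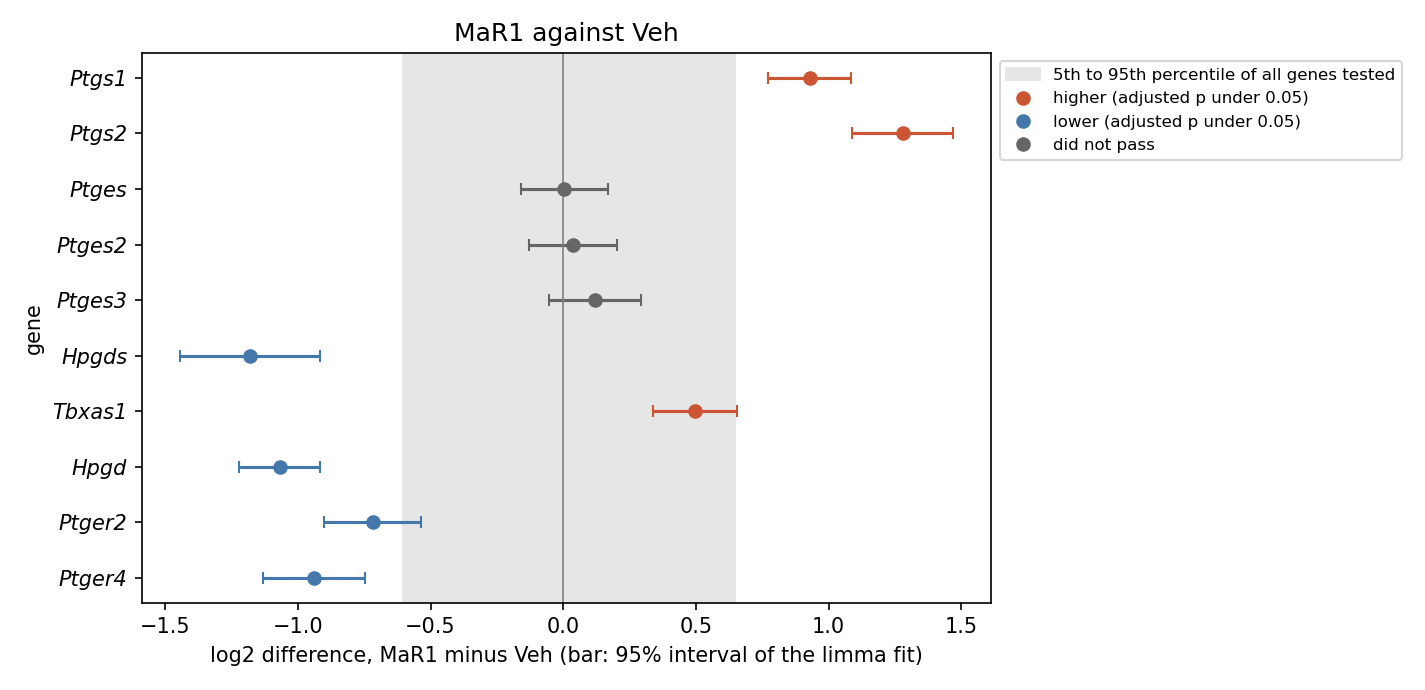
Log2 difference of each gene, MaR1 minus Veh (horizontal axis), with the 95% interval of the limma fit as a bar; orange genes were higher and blue genes lower with an adjusted p under 0.05, grey points did not pass, and the grey band spans the 5th to the 95th percentile of all genes tested (-0.60 to 0.65). Ptgs1, Ptgs2, Hpgds, Hpgd, Ptger2 and Ptger4 lie outside the band, and Tbxas1 (0.50) lies inside it.

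The other terminal synthases moved in opposite directions. Hpgds encodes the haematopoietic synthase of prostaglandin D2, and its probe read 375 and 427 with Veh and 183 and 144 with MaR1. Both MaR1 values were under every Veh value. The scaled level fell from -1.28 ± 0.10 to -2.46 ± 0.13 (SD, n = 2), a difference of -1.18 ± 0.10 (adjusted p = 0.00565), the widest SE among the members. Tbxas1, whose product makes thromboxane A2, read 10322 and 10130 with Veh and 14084 and 12491 with MaR1. Its difference was 0.50 ± 0.06 (adjusted p = 0.0112), and 14.6% of genes had a larger one. This call was lost without any 1 of the 4 arrays, with adjusted p between 0.0507 and 0.0604, and with no scaling between arrays (difference 0.38, adjusted p = 0.0551). Within an array the ratio of Tbxas1 to Hpgds shifted by 1.68 on the log2 scale, with an SD of 0.15 between the Veh and of 0.12 between the MaR1 arrays.

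Hpgd, the gene of the enzyme that starts the breakdown of prostaglandin E2, read 1496 and 1591 with Veh and 716 and 638 with MaR1, with no overlap. The scaled level fell from 0.66 ± 0.03 to -0.40 ± 0.00 (SD, n = 2), a difference of -1.07 ± 0.06 (adjusted p = 0.00298). With Ptgs2 higher and Hpgd lower, the Ptgs2 to Hpgd ratio within an array shifted by 2.35 on the log2 scale, which is 5.09-fold, with SDs of 0.05 (Veh) and 0.02 (MaR1). The ratio of Ptgs1 to Hpgd shifted by 2.00, which is 3.99-fold, with SDs of 0.06 (Veh) and 0.04 (MaR1). These ratios compare changes, not the amounts of the transcripts, and had no test.

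Both measured EP receptor members fell. Ptger4 encodes EP4, a receptor that couples to Gs and raises cyclic AMP. Its brightest probe read 5558 and 5543 with Veh and 2686 and 2632 with MaR1, and the scaled level fell from 2.51 ± 0.03 to 1.57 ± 0.09 (SD, n = 2). The difference was -0.94 ± 0.07 (adjusted p = 0.00506). A second probe, named through another RefSeq transcript of the gene, read 522 and 550 with Veh and 279 and 232 with MaR1 and gave a difference of -0.95 ± 0.07 (adjusted p = 0.00418, tested as a probe of its own). Thus both probes of Ptger4 gave the same size of decrease within their SE.

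Ptger2 encodes EP2, the other receptor of prostaglandin E2 that raises cyclic AMP. Its probe read 831 and 829 with Veh and 508.5 and 422 with MaR1, with no overlap. The scaled level fell from -0.23 ± 0.03 to -0.95 ± 0.08 (SD, n = 2), a difference of -0.72 ± 0.07 (adjusted p = 0.00711), and 7.40% of genes had a larger one. Within an array, the ratio of Ptger2 to Ptger4 shifted by 0.22, with an SD of 0.17 between the MaR1 arrays and under 0.01 between the Veh arrays. That shift is close to the spread between the MaR1 arrays, so the size of the decrease could not be separated between the receptors.

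Of the 7 called members, 6 stayed past the threshold on leaving out any single array, with adjusted p at most 0.0409, and in each of 10 other settings of scaling, background, filter, probe summary and model. Tbxas1 was the exception. With no scaling between arrays, the split over all genes turned to 1451 higher and 3945 lower, from 2700 and 3068, and the median of all genes moved to -0.14. The lowest and highest values of Ptgs2 over the 10 settings were 1.15 and 1.29, and those of Hpgds -1.30 and -0.85.

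**Figure D3:**
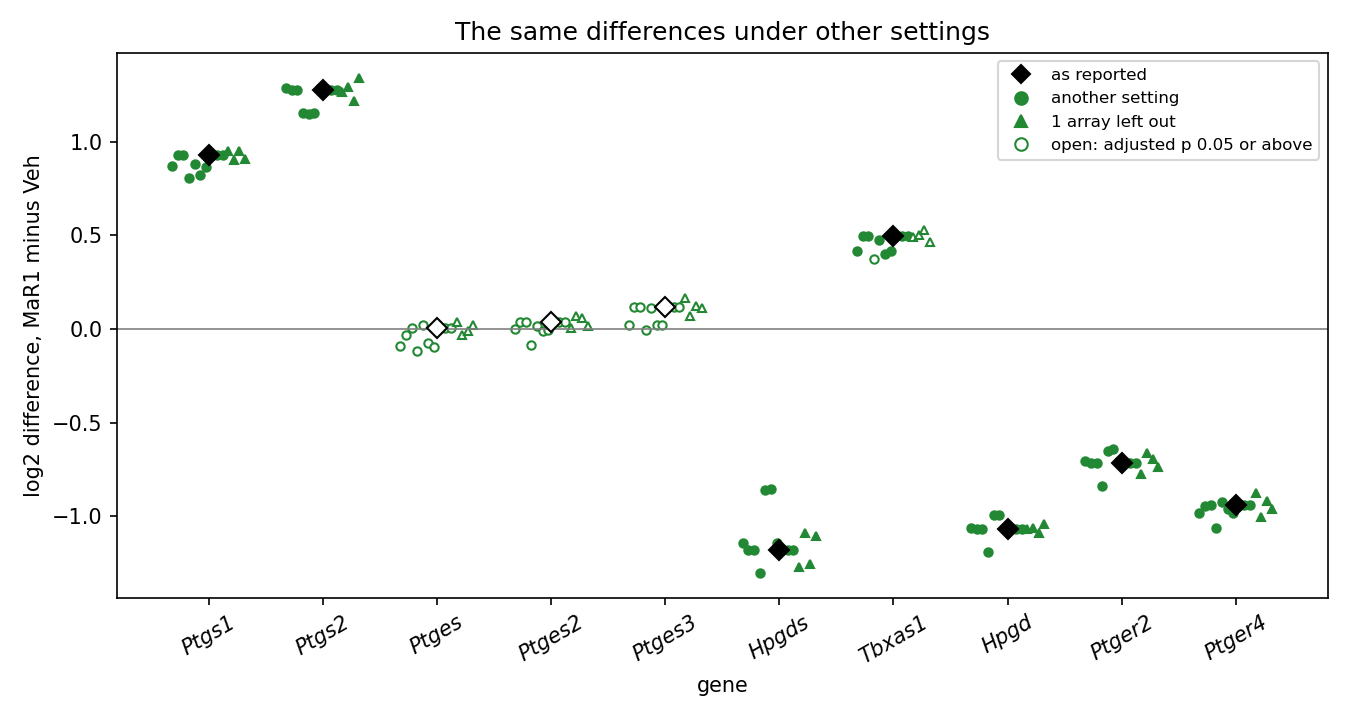
Log2 difference of each gene, MaR1 minus Veh (vertical axis), as reported (black diamonds), under 10 other settings (green circles) and with 1 of the 4 arrays left out (green triangles); open symbols have an adjusted p of 0.05 or above. Ptgs1, Ptgs2, Hpgds, Hpgd, Ptger2 and Ptger4 have filled symbols throughout, Tbxas1 has open triangles, and the 3 prostaglandin E2 synthase genes lie near 0.

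Beyond the members, the largest difference on the pathway lists was that of Ptgir, the gene of the prostacyclin receptor IP, which also raises cyclic AMP. Its probe read 121 and 106 with Veh and 312 and 353 with MaR1. It rose 3.19-fold (1.68 ± 0.15, adjusted p = 0.00634), opposite in direction to Ptger2 and Ptger4. Ptgis, the prostacyclin synthase gene, read 11613 and 11530 with Veh and 19124 and 16953 with MaR1 and rose by 0.76 ± 0.06 (adjusted p = 0.00485). Its other probe gave 0.83 ± 0.07 (adjusted p = 0.00529). Tbxa2r, the thromboxane receptor gene, read 71.4 and 67.5 with Veh and 45.6 and 44.0 with MaR1 and fell (-0.51 ± 0.08, adjusted p = 0.0187), a call lost on leaving out any single array (adjusted p at most 0.0817).

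The list of other prostanoid receptors holds 9 genes, among them Ptgfrn, which encodes a regulator of the Ptgfr receptor and not a receptor of prostanoids. Of these 9, 5 (Ptger1, Ptger3, Ptgdr, Ptgfr and Ptgfrn) were not well above background on both arrays of either group and were not tested. Of the other 4, 1 rose (11.2% of all features), 1 fell (12.7% of all features) and 2 did not pass: the nuclear receptor gene Pparg (-0.17 ± 0.06, adjusted p = 0.105) and the prostaglandin D2 receptor gene Ptgdr2 (-0.47 ± 0.35, adjusted p = 0.363). Among 7 other synthesis genes tested, 1 rose and 2 fell, with a median difference of -0.13. That is 42.9% called, against 24.0% of all features, and 2 of the 3 calls held whichever array was left out. Prxl2b, which encodes a prostaglandin F synthase, fell (-0.92 ± 0.05, adjusted p = 0.00323). Cbr3, a carbonyl reductase gene, fell too (-0.31 ± 0.06, adjusted p = 0.0360), but its adjusted p reached 0.151 on leaving out an array, and the call was lost with any of them left out. The aldose reductase gene Akr1b3 did not pass (-0.21 ± 0.07, adjusted p = 0.0941), and Ptgds, the lipocalin-type prostaglandin D2 synthase gene, was not well above background on the 4 arrays.

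At the first step of the pathway, 0 of the 3 listed genes of arachidonate release passed limma's test by their brightest probes. By these probes 0 had an unadjusted p under 0.05: Pla2g4a, the cytosolic phospholipase A2 gene (0.09 ± 0.07, adjusted p = 0.360), Pla2g6 (-0.23 ± 0.10, adjusted p = 0.161) and Plaa (0.14 ± 0.06, adjusted p = 0.188). A further Pla2g6 probe, tested singly, gave -0.31 ± 0.07 (adjusted p = 0.0508), and a further Plaa probe gave -0.01 ± 0.06 (adjusted p = 0.901). Of 8 transport and breakdown genes listed, 1 (Ptgr3) matched no probe, and of the 7 tested 2 rose and 1 fell, with a median of 0.14. That is again 42.9% called, against 24.0% of all features, but 1 of the 3 calls held whichever array was left out. Abcc4, an exporter of prostaglandins and cyclic nucleotides, fell (-0.68 ± 0.07, adjusted p = 0.00841) and kept its call whichever array was left out. Slco3a1 (0.33 ± 0.07, adjusted p = 0.0429) and Cyp4f18 (0.23 ± 0.05, adjusted p = 0.0487) rose, and neither call survived the loss of any single array (adjusted p at most 0.159 and 0.195). Tested singly, other probes of Slco3a1 gave 0.29 ± 0.09 (adjusted p = 0.0803) and 0.83 ± 0.06 (adjusted p = 0.00416). Another probe of Cyp4f18 gave 0.26 ± 0.07 (adjusted p = 0.0721). The prostaglandin importer gene Slco2a1 did not pass (0.23 ± 0.06, adjusted p = 0.0647).

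The leukotriene branch, which draws on the same arachidonic acid, changed in both directions. Of 7 genes tested, 3 rose and 2 fell (71.4% called, against 24.0% of all features), with a median of -0.01, and 1 call, that of Alox5ap, held whichever array was left out. Alox5ap, whose product presents arachidonic acid to 5-lipoxygenase, fell most (-1.31 ± 0.08). The cysteinyl leukotriene receptor gene Cysltr1 also fell (-0.65 ± 0.07, adjusted p = 0.0102; 0.0556 without MaR1 replicate 2), while the other receptor gene, Cysltr2 (0.42 ± 0.06, adjusted p = 0.0177), and the leukotriene C4 synthase gene Ltc4s (0.47 ± 0.07, adjusted p = 0.0191) rose. The calls of Cysltr2 and Ltc4s were lost without either Veh array or MaR1 replicate 2 (adjusted p up to 0.0871 and 0.0856). The leukotriene B4 receptor gene Ltb4r1, named here because of its call, rose as well (0.56 ± 0.12, adjusted p = 0.0393), and lost the call on leaving out any array (adjusted p at most 0.128). Across the 5 lists, 7 of 28 tested genes rose and 6 fell, with a median of -0.03. These are 46.4% called, against 24.0% of all features. The lists were also chosen with earlier results of these data known, so that share does not test them.

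**Figure D4:**
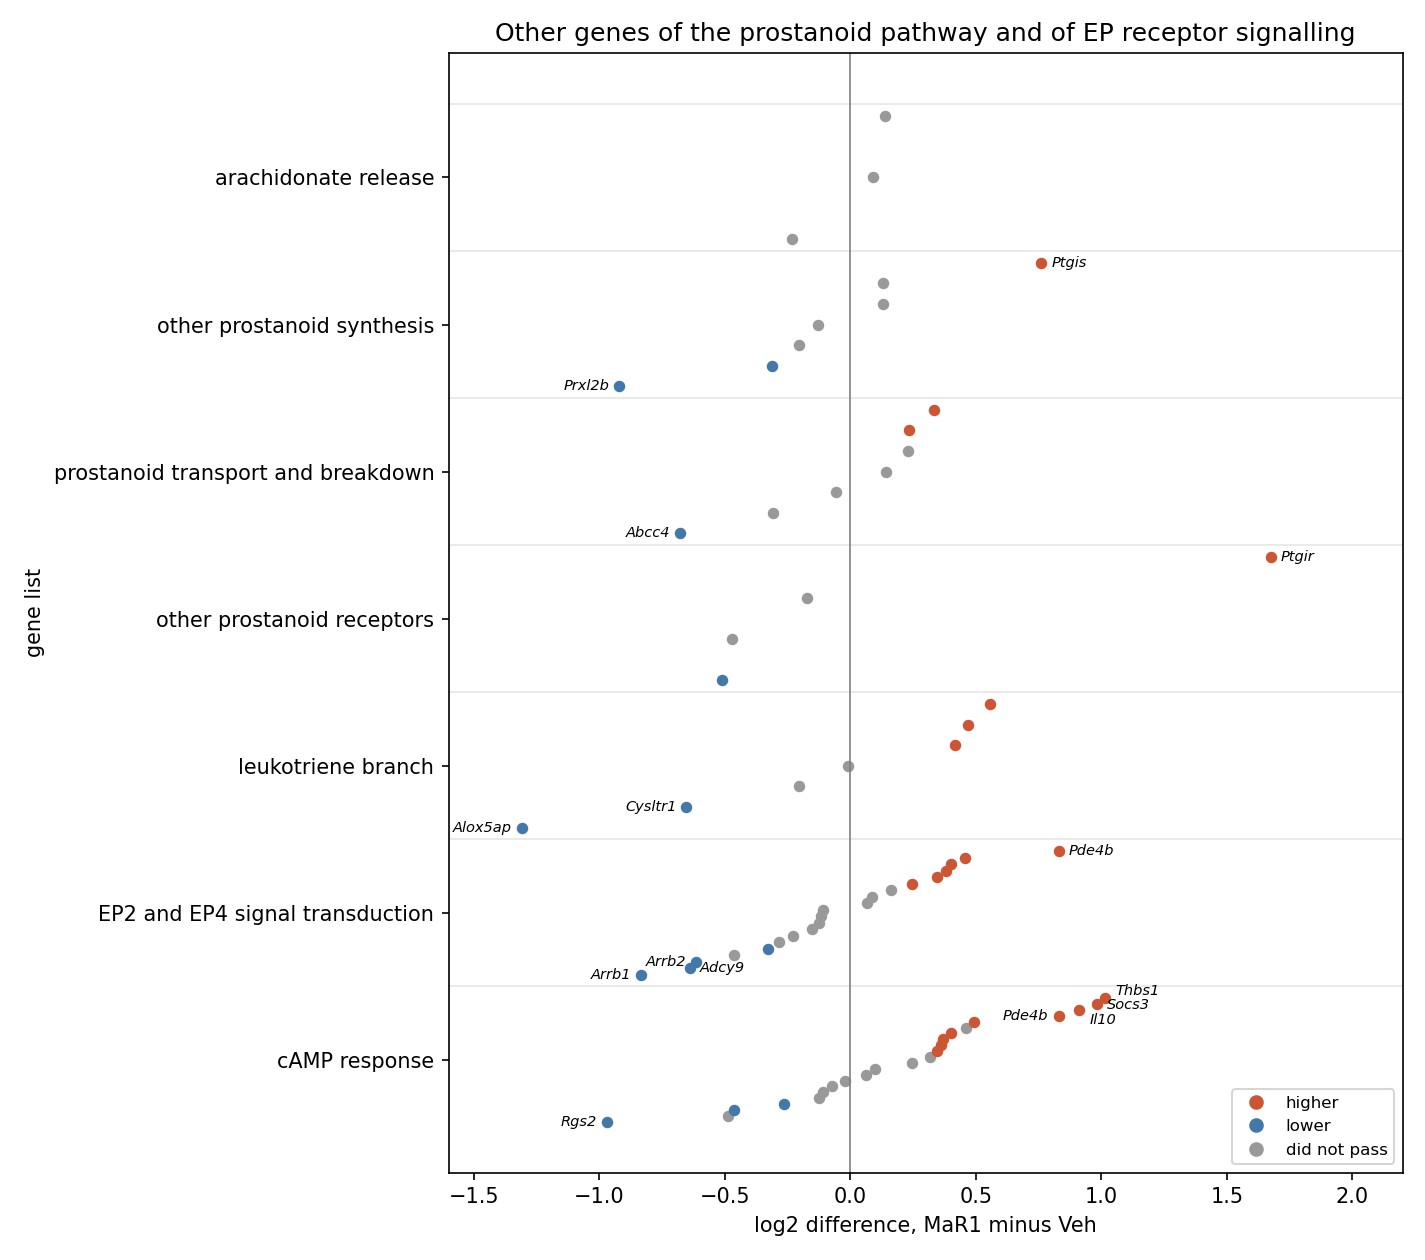
Log2 difference, MaR1 minus Veh (horizontal axis), of each tested gene on 7 lists of the prostanoid pathway and of EP receptor signalling (vertical axis; genes are spread within a list only to separate points); orange genes were higher, blue genes lower and grey genes did not pass. Ptgir (1.68) has the largest increase shown and Alox5ap (-1.31) the largest decrease, and called genes past 0.6 in either direction are named.

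Genes downstream of EP2 and EP4 changed in both directions. On the list of signal transduction genes, 6 of 20 rose and 4 fell, with a median of -0.11. Over all features 11.2% rose and 12.7% fell. The arrestin genes Arrb1 (-0.83 ± 0.06, adjusted p = 0.00386) and Arrb2 (-0.62 ± 0.06, adjusted p = 0.00648), whose products switch off receptors, fell, as did the adenylyl cyclase gene Adcy9 (-0.64 ± 0.06, adjusted p = 0.00725). Pde4b, which encodes a phosphodiesterase that destroys cyclic AMP and is itself induced by it, rose (0.83 ± 0.06, adjusted p = 0.00518). These 4 calls held whichever array was left out, and the other 6 of the list did not.

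On the list of genes known to respond to cyclic AMP, 9 of 22 rose, 3 fell and 10 did not pass, with a median of 0.28. The 3 that fell are a share near the 12.7% of all features, while 11.2% of all features rose. The matrix protein gene Thbs1 (1.01 ± 0.07), the cytokine signalling inhibitor gene Socs3 (0.98 ± 0.06) and Il10 (0.91 ± 0.06), an anti-inflammatory cytokine gene, rose. Rgs2, which encodes a brake on G protein signalling, fell (-0.97 ± 0.05, adjusted p = 0.00301). Of the 12 calls, 5 held whichever array was left out: those of these 4 genes and of Pde4b. The NR4A genes Nr4a1 (0.06 ± 0.06), Nr4a2 (-0.11 ± 0.06) and Nr4a3 (-0.08 ± 0.06), which respond early to cyclic AMP, did not pass. The genes Crem, Pde4b and Pde4d are on both lists, and over the 39 distinct genes 12 rose and 7 fell (48.7% called, against 24.0% of all features). Both lists were chosen with earlier results of these data known, so that share does not test them.

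All 10 Kupffer cell markers, among them Clec4f and Timd4, were well above background on every array, and their summed level (in multiples of the array's 75th percentile) was 1154 to 1198 with Veh and 1110 to 1130 with MaR1. Marco is the brightest of them (-0.19 ± 0.06, adjusted p = 0.0905). Among the 10, Adgre1, the gene of F4/80, fell (-0.67 ± 0.06, adjusted p = 0.00634) and Csf1r, the gene of the receptor for macrophage colony-stimulating factor, rose (0.29 ± 0.07, adjusted p = 0.0471). That is 20% called, against 24.0% of all features.

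Ptgs1, Tbxas1 and Hpgds are also known as genes of platelets and mast cells. Among platelet and megakaryocyte markers, Gp1ba and Gp9 were not well above background, 1 of the 6 tested (Gp6) fell and the others, with Pf4 the brightest (0.15 ± 0.08), did not pass, and the summed level was 14.2 to 15.4 with Veh and 15.6 to 17.0 with MaR1. Of 9 mast cell and basophil markers, Fcer1a, Ms4a2 and Mcpt8 were not well above background. Kit (0.69 ± 0.06) and Cma1 (0.81 ± 0.06) rose and Hdc (-0.78 ± 0.08) fell. The summed level of these markers was 7.02 to 7.35 with Veh and 10.1 to 10.2 with MaR1. Ptgs1 and Ptgis are also known from endothelium, of whose 9 markers 3 rose and 1 (Gpr182, -0.69 ± 0.09) fell. Those that rose were Pecam1 (1.15 ± 0.06), Stab2 (0.47 ± 0.07) and Cdh5 (0.33 ± 0.08). The median difference of these endothelial markers was -0.16. Their summed level, which follows the brightest genes, was 64.8 to 68.0 with Veh and 77.7 to 78.2 with MaR1. Called were 16.7% of the tested platelet, 50% of the mast cell and 44.4% of the endothelial markers, against 24.0% of all features. The part of these cell types in the results was not tested.

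Markers of other cell types also differed, and a list's sum follows its brightest genes. Over all features 24.0% were called, 11.2% higher and 12.7% lower. Of 5 B cell markers, 3 rose (60% called), among them the brightest, Cd79b (0.74 ± 0.08), and Ms4a1 (1.21 ± 0.09). Cd79a (0.44) and Pax5 (-0.42) did not pass, and the summed level of the B cell list was 1.93 to 2.17 with Veh and 3.43 to 3.63 with MaR1. Of 7 T and NK cell markers (57.1% called), Cd8a rose (1.27 ± 0.06, adjusted p = 0.00251), and Cd4 (-0.36 ± 0.07), Ncr1 (-0.34 ± 0.06) and Nkg7 (-0.38 ± 0.06) fell. The brightest, Cd3d, did not pass (-0.22 ± 0.06), while its other probe, tested singly, did (-0.31 ± 0.07, adjusted p = 0.0475). In the same way, another Cd8a probe gave 1.01 ± 0.06 (adjusted p = 0.00359) and another Cd4 probe -0.46 ± 0.18 (adjusted p = 0.131). Klrb1c did not pass by its brightest probe (-0.14 ± 0.09). Further Klrb1c probes, tested singly, gave -0.58 ± 0.09 (adjusted p = 0.0205) and -0.28 ± 0.06 (adjusted p = 0.0392). The summed level of the T and NK cell list was 11.7 to 11.9 with Veh and 9.91 with MaR1. Of 7 dendritic cell markers tested, 4 rose (57.1% called): Clec9a (0.99 ± 0.06), Cd209a (0.73 ± 0.10), Zbtb46 (0.47 ± 0.08) and Ccr7 (0.36 ± 0.06). The brightest of that list, Siglech (-0.28 ± 0.09), did not pass, nor did Flt3 (-0.28) and Itgae (-0.14). A further Siglech probe, tested singly, gave 0.15 ± 0.17 (adjusted p = 0.526). Xcr1 was not well above background, and the summed level of the dendritic cell list was 39.1 to 42.5 with Veh and 41.2 to 42.6 with MaR1.

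Of 7 hepatocyte markers tested, Ttr fell (-0.41 ± 0.06), Alb, the brightest, did not pass (-0.23 ± 0.09), and Apob was not well above background. Their summed level was 19.6 to 21.1 with Veh and 16.9 to 17.9 with MaR1. Of 5 stellate cell markers tested, Reln (-0.44 ± 0.06) and Dcn (-0.37 ± 0.06), the brightest, fell, while Lrat, Des and Ngfr were not well above background. Their summed level was 3.81 to 3.91 with Veh and 2.94 to 3.02 with MaR1. Of 6 neutrophil markers tested, Elane the brightest (-0.14 ± 0.10), 0 passed limma's test and 0 had an unadjusted p under 0.05, and Cxcr2 was not well above background. Called were 14.3% of the hepatocyte and 40% of the stellate cell markers tested, against 24.0% of all features. The part of these other cell types in the results was not tested. All 4 arrays were on 1 slide, Veh at positions 1 and 2 and MaR1 at positions 3 and 4, and slide position cannot be told apart from treatment.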

How the data were processed

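The deposited file of each array holds linear intensity values, which the authors extracted with Agilent Feature Extraction 11.0.1.1 (per the submitters' processing notes and the file headers), with background subtraction and detrending within an array. The deposited value table holds log2 values whose scale and filter are not stated; against the scanner's processed signal of the same array (log2), r was 1.00, the column medians were 9.07, and the sorted columns differed by at most 0.00217. The processed signal was divided by its 75th percentile on the array (847 to 988) over 59305 non-control spots and taken to log2, without outlier spots (94 to 123 per array); no spot was saturated (0). The number of arrays limits the precision. Probes well above background on both arrays of a group were kept (31128 of 56605), and the brightest of them stood for its gene. All 13 probes of the members were kept. Names came from RefSeq accessions looked up in RefSeq genes of GRCm38.p6, which named 32994 probes.

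The comparison used limma 3.58.1 (lmFit, eBayes) under R 4.3.3, two-sided, with a threshold of 0.05 after Benjamini-Hochberg adjustment over 24067 genes. The fit function was tested on simulated data. Promoter windows were searched and figures drawn in Python 3.11.15 with pandas 2.3.3 and matplotlib 3.10.9. The members and lists were chosen with earlier results of these data known. Named genes were every member and up to 4 genes per pathway list with the smallest unadjusted p. Also named were receptor and synthase genes not above background, and the brightest marker of each cell type list with markers not above background. Ltb4r1, the NR4A genes, the called markers and some markers that did not pass were named after their values were seen. No pairing by replicate number was seen (correlation of deviations -0.03 over 24050 genes), which does not show that the samples were unpaired. Alternatives were quantile normalization, normexp (offset 50) on the median spot signal with and without it, the authors' deposited values, a stricter filter or none, averaging the probes of a gene, testing all probes singly, a variance trend, a replicate block, leaving out each array and, added after the data were seen, no scaling.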

Additional observations from a re-analysis of the deposited data

How the results depend on the processing

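The number of called members was 7 in every setting except without any 1 array and with no scaling, where Tbxas1 was lost and it was 6. The median difference of the members, 0.02 as reported, was -0.049 with quantile normalization, -0.042 with normexp and quantile normalization, -0.047 in the authors' value table and -0.10 with no scaling. Over all genes 5768 were called; 2059 with no filter on dim probes, 9192 with a variance trend, 3692 with the replicate number as a block, and 1967 to 2825 with 1 array left out. Of the other pathway genes 13 were called, against 6 with no filter and 6 to 8 with 1 array left out, and of the signalling and cyclic AMP genes 19, against 10 with no filter and 8 or 9 with 1 array left out. The cause was not tested. The block, which rests on replicate numbers alone, changed no call among the members. With 2 arrays per group and in the scaling reported, the 95% intervals of the 3 prostaglandin E2 synthase genes reach up to 0.29 on the log2 scale.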
